A study of Mus musculus with 12 samples.

Results

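The genes for the DNA methyltransferases Dnmt1, Dnmt3a and Dnmt3b, their cofactor Dnmt3l and the 5mC dioxygenase Tet1 were examined on a mouse CpG island array in 4 ES cell lines that differ in their mtDNA. The probes were chosen by position alone, as the array probes that lie on build mm9 within chr9:20705000-20765000 (Dnmt1), chr12:3745000-3865000 (Dnmt3a), chr2:153470000-153515000 (Dnmt3b), chr10:77505000-77530000 (Dnmt3l) or chr10:62260000-62345000 (Tet1). They held 17 of the 88737 probes, with 6 probes for Dnmt1, 4 for Dnmt3a, 3 for Dnmt3b, 4 for Dnmt3l and 0 for Tet1. The probes of each gene lay side by side in 1 island, in which no 2 neighbouring probes are more than 1000 bp apart, so that 4 of the 14580 islands of the array were covered. Each island is named for the window that holds it. Whether an island covers a promoter, an exon or an intron was not determined, since the annotation given was for GRCm38.

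DNA methylation at CpG sites is set by de novo methyltransferases and copied onto the new strand after each round of replication by the maintenance enzyme. Dnmt1 is the maintenance enzyme, Dnmt3a and Dnmt3b act de novo, and Dnmt3l has no catalytic activity of its own but binds to both and stimulates them. Tet1 oxidises 5mC to 5hmC, an intermediate on the way to unmethylated cytosine, and is abundant in ES cells, where Dnmt3b and Dnmt3l are also highly expressed. CpG islands at the promoters of active genes are mostly unmethylated.

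All 4 lines had the nuclear background of CC9.3.1, an ES cell line from a 129SvEv-Gpi1c (129S6) embryo, and had been rebuilt by fusing mtDNA-depleted CC9.3.1 cells with enucleated cytoplasts. CC9mus carried Mus musculus mtDNA, the genotype of the parental line, and was made in the same way to serve as the control. CC9spretus, CC9dunni and CC9pahari carried mtDNA of Mus spretus, Mus terricolor (named dunni in the line) and Mus pahari, and are called the divergent lines here. The cells were undifferentiated and had been kept without feeder cells for 48 h. Each haplotype was represented by 1 line, so haplotype and line cannot be told apart. The 3 arrays of a line were described as biological replicates.

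The sequence context of the genes is given by their promoters, read from RefSeq on GRCm38.p6 as the 250 bases before the start and printed 5′ to 3′ on the strand of the gene, with each CpG, the site at which methylation occurs, in capitals. They are shown because CpG density sets how much DNA the antibody can capture. Where a gene had several starts, the promoter with the most CpGs is shown. The Dnmt1 stretch lies downstream of another start of the gene, whose own promoter is chr9:20952980-20953229. Most of the Dnmt3a stretch likewise lies downstream of the start that follows chr12:3806730-3806979. Both stretches can therefore hold sequence transcribed from the other start. No match between these coordinates and the mm9 probes was made.
Dnmt1, chr9:20952624-20952873, minus strand: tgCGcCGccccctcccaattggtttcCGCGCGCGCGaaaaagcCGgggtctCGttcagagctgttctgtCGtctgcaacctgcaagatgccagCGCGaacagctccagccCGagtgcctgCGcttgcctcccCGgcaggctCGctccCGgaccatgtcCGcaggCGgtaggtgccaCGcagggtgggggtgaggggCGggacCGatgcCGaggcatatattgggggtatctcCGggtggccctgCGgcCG
Dnmt3a, chr12:3806910-3807159, plus strand: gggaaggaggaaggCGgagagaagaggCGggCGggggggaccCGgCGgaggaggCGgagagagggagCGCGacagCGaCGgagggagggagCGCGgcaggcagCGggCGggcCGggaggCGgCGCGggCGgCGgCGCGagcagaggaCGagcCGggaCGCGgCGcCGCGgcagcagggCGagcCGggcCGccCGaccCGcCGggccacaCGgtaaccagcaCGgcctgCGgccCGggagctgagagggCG
Dnmt3b, chr2:153649199-153649448, plus strand: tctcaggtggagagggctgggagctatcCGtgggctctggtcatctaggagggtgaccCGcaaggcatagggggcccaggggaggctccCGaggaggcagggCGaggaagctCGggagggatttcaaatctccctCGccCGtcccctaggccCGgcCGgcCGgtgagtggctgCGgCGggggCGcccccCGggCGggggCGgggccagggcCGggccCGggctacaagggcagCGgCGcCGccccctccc
Dnmt3l, chr10:78042037-78042286, plus strand: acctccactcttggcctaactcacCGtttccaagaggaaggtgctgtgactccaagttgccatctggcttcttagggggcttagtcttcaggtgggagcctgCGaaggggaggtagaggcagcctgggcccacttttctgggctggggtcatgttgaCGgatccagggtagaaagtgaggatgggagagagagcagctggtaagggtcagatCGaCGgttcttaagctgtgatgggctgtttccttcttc

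These promoters held 26 CpGs in Dnmt1, 40 in Dnmt3a, 21 in Dnmt3b and 5 in Dnmt3l, against a median of 6 in 32851 promoters of the same length. At least 40 CpGs were found in 1.31% of all promoters, and at least 5 in 55.6%. The Dnmt3a sequence, the densest of its 3 starts, was thus among the most CpG-dense of these promoters and that of Dnmt3l was not. The other starts of Dnmt1 held 2 and 7 CpGs, those of Dnmt3a held 38 and 15, and those of Dnmt3l held 4 and 3. The single Tet1 promoter, at chr10:62887325-62887574 on the minus strand of GRCm38.p6, held 15.

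Methylated DNA was enriched with an antibody to 5mC (MeDIP). The immunoprecipitated DNA (IP) was labelled with Cy5 and the input with Cy3, and the value of a probe was log2(IP/input) after each array had been centred on its median. A ratio of 0 is therefore the median of the array and not the absence of methylation. Between 75.2% and 98.6% of probes gave an IP signal well above background. The SD of the log2 ratio over probes was 0.53, 1.85 and 2.01 on the CC9mus arrays and between 1.09 and 1.38 on the other 9, so replicate 1 of CC9mus was far flatter than all other arrays. All CC9mus arrays were scanned in the later of 2 scan periods, on a day of their own, and replicates 1 and 2 of each divergent line in the earlier one. Scan day and the CC9mus line cannot be told apart.

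The Dnmt1 island, chr9:20756899-20757449, had its lowest ratios in CC9mus. They were −0.10, −0.51 and −0.35 on the CC9mus arrays, 0.10, 0.07 and −0.10 in CC9spretus, 0.04, 0.01 and −0.04 in CC9dunni, and 0.17, 0.20 and 0.19 in CC9pahari. All 3 CC9mus arrays lay below the other 9, as in 3.32% of all islands, and all 3 CC9pahari arrays lay above the other 9, as in 0.988%. The narrowest gap was between CC9mus replicate 1 and CC9spretus replicate 3, which both round to −0.10. The means were −0.32 ± 0.20 (SD, n = 3) in CC9mus, 0.03 ± 0.11 in CC9spretus, 0.00 ± 0.04 in CC9dunni and 0.19 ± 0.02 in CC9pahari. CC9spretus and CC9dunni did not differ beyond their spread. With normexp background correction the mean was −0.11 in both CC9pahari and CC9spretus, so the distance between these lines was lost.

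**Figure D1:**
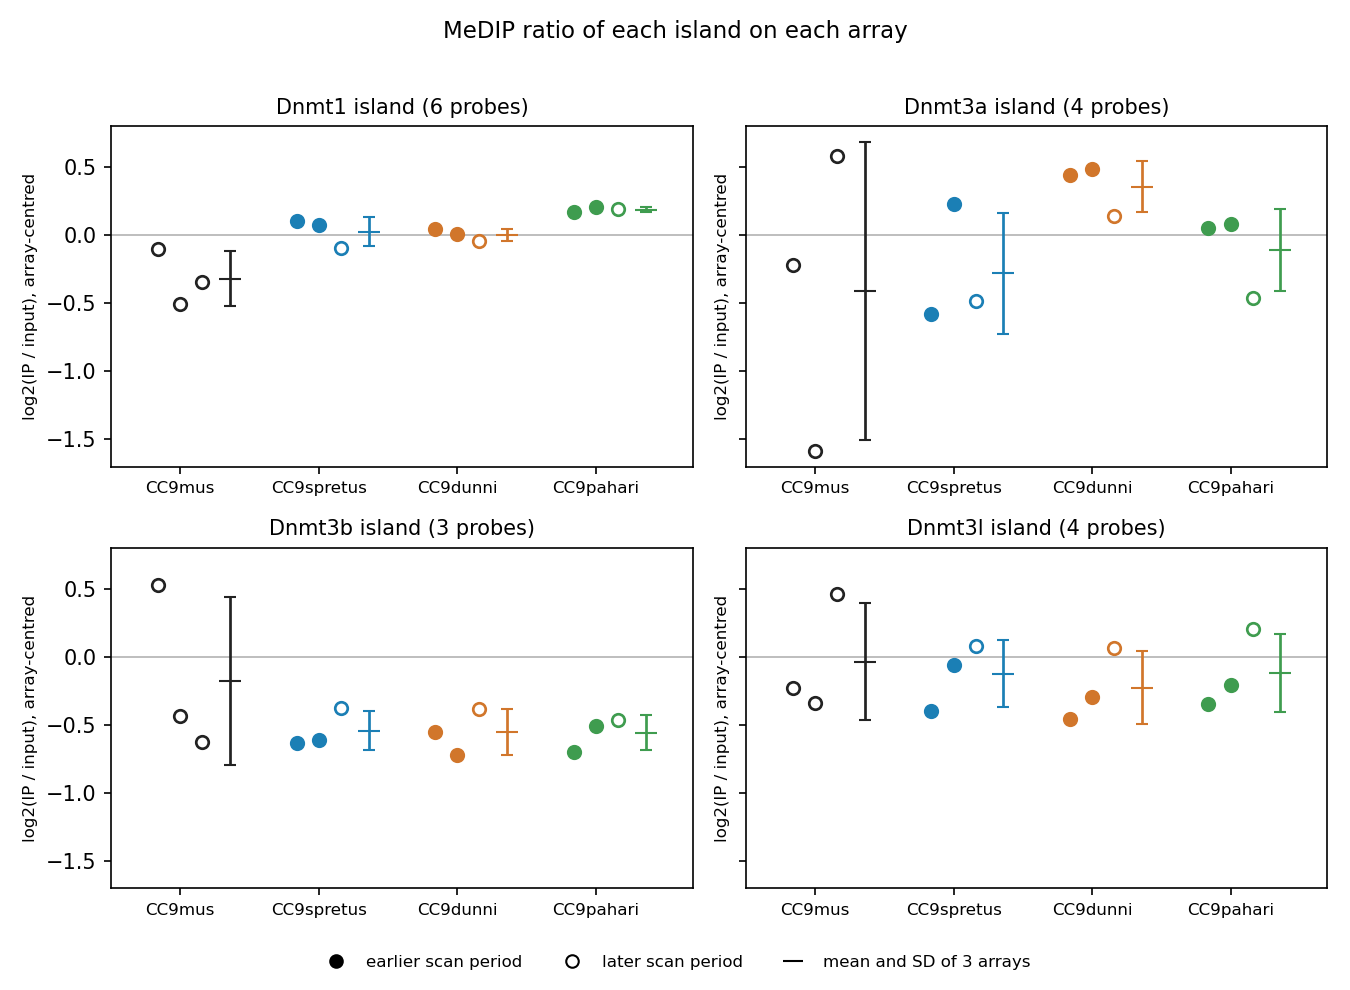
Array-centred log2(IP/input) of the 4 islands (vertical axis) on each of the 12 arrays by line (horizontal axis), with filled points for arrays of the earlier scan period, open points for the later one, and bars for the mean and SD of 3 arrays. For Dnmt1 the CC9mus arrays lie below all others and the CC9pahari arrays above all others, and for the other 3 genes no line lies apart from all the others.

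CC9mus was 0.39 lower at Dnmt1 than the mean of the other 3 lines (95% interval −0.69 to −0.10). The difference did not pass the test (limma, adjusted p = 0.0826 over all islands). No island of the array passed in this comparison in limma, and 32.3% of islands had an unadjusted p under 0.05, Dnmt1 among them as 1 of 4. Against CC9mus alone, CC9pahari was 0.51 higher (0.15 to 0.87, limma adjusted p = 0.129), CC9spretus 0.35 higher (−0.01 to 0.71, limma adjusted p = 0.276) and CC9dunni 0.32 higher (−0.04 to 0.68, limma adjusted p = 0.245). The sign of the difference from CC9mus was the same in all 28 alternative settings, in which CC9mus was between 0.24 and 0.70 lower. The settings reuse the same arrays. In some, such as the replicate block and the gaps of 500 and 2000 bp, the difference of each of the 4 islands did not change. A count of settings is therefore not a count of separate checks, here and below. Of these settings, 2 brought a call for CC9mus against the mean of the others. Without CC9mus replicate 1, the flat array, CC9mus was 0.50 lower (limma adjusted p = 0.00900), with 50.3% of all islands called. With probes of dim IP left out, it was 0.70 lower (limma adjusted p = 0.0268), with 15.1% called. That setting removes the fourth probe, the only one of the 6 with a higher ratio in CC9mus, which was dim in CC9dunni and CC9pahari and not in CC9mus, so the call is not independent of the difference tested.

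Probe by probe, the Dnmt1 island did not move as 1 block. Of its 6 probes, 4 were lower in CC9mus at an unadjusted p under 0.05 in limma, 1 was higher and 1 had no such difference. The fifth probe, chr9:20757327-20757371, had the highest mean ratio and read 0.16, 0.07 and −0.39 in CC9mus and 0.43 to 1.89 on the other 9 arrays. All CC9mus arrays lay below the rest at this probe (3.36% of all probes), and the difference was −0.78 (−1.41 to −0.14, limma adjusted p = 0.112). The third probe, chr9:20757074-20757118, had the lowest mean ratio, with −0.34, −1.81 and −1.33 in CC9mus and −0.87 to −0.31 elsewhere. Here CC9mus replicate 1 fell within the range of the other lines. The first probe, chosen after its values were seen, had the lowest adjusted p of the Dnmt1 probes (−0.86, −1.46 to −0.26, limma adjusted p = 0.0756).

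The fourth Dnmt1 probe, chr9:20757225-20757269, went the other way. It read 0.30, 0.10 and 2.01 in CC9mus, 0.03, −0.10 and −0.32 in CC9spretus, −0.62, −0.78 and −0.39 in CC9dunni and −0.27, −0.32 and −0.12 in CC9pahari. All CC9mus arrays lay above the other 9 (3.78% of probes) and all CC9dunni arrays below (0.835%), and the distance of CC9mus from the other lines came mostly from replicate 3. The difference was 1.12 (0.34 to 1.90, limma adjusted p = 0.0759). This was also the dimmest probe of the island. Its IP stood well above background on all 3 arrays of CC9mus and CC9spretus and on 1 of 3 in CC9dunni and in CC9pahari, so a low ratio in the last 2 lines rests in part on signals near background.

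**Figure D2:**
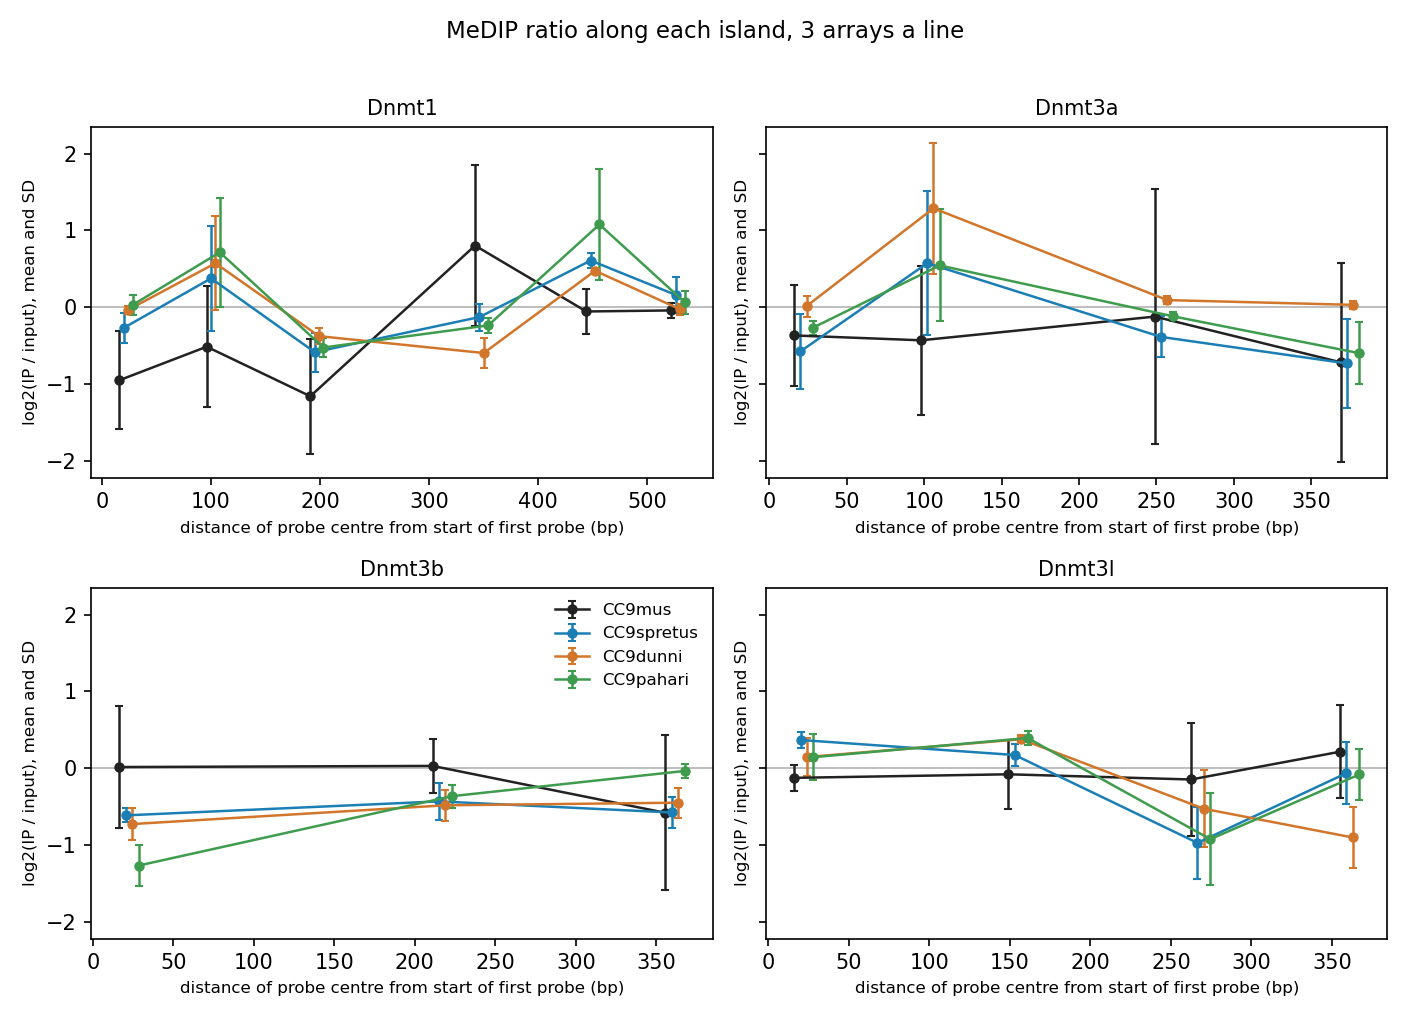
Line mean and SD over 3 arrays of log2(IP/input) (vertical axis) for each probe, against the distance of its centre in bp from the start of the first probe of the island (horizontal axis), with the lines shifted slightly sideways. In Dnmt1, CC9mus is the lowest line at probes 1, 2, 3, 5 and 6 and the highest at probe 4.

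The Dnmt3a island, chr12:3808024-3808421, was the most variable of the 4. Its ratios were −0.22, −1.59 and 0.58 in CC9mus, −0.58, 0.23 and −0.49 in CC9spretus, 0.44, 0.49 and 0.14 in CC9dunni, and 0.05, 0.08 and −0.46 in CC9pahari. The CC9mus arrays held both the lowest and the highest of the 12 values, so that every line lay within the range of CC9mus. In order of the means, CC9dunni (0.36 ± 0.19, SD, n = 3) was followed by CC9pahari (−0.11 ± 0.30), CC9spretus (−0.28 ± 0.44) and CC9mus (−0.41 ± 1.10), and only CC9dunni and CC9pahari were neighbours whose arrays did not overlap, with a difference of −0.47 (−1.47 to 0.54) for CC9pahari minus CC9dunni. CC9mus was 0.40 lower than the other lines with an interval of −1.22 to 0.42 (limma adjusted p = 0.466), which leaves both directions possible. This sign held in 26 of 28 alternative settings. It turned without CC9mus replicate 2 (0.19) and with array weights (0.06), and without CC9mus replicate 3 the difference was −0.89.

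At Dnmt3a the second probe, chr12:3808106-3808150, had both the highest mean ratio and the smallest p for any difference among lines. It read 1.75, 1.81 and 0.31 in CC9dunni, 0.78, 1.39 and −0.45 in CC9spretus, 1.02, 0.91 and −0.30 in CC9pahari, and −0.10, −1.52 and 0.33 in CC9mus. In each divergent line the third array was the low one, and it was the only one of the later scan period, in which all CC9mus arrays were scanned. The CC9dunni array of that period lay within the range of CC9mus. CC9dunni was 1.72 above CC9mus (0.34 to 3.10, limma adjusted p = 0.150). The fourth probe had the lowest mean ratio and ranged from −2.16 to 0.35, and both extremes were CC9mus arrays.

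The Dnmt3b island, chr2:153475348-153475733, had a narrow range in the divergent lines. The 9 divergent arrays lay between −0.72 and −0.38, and the means of the 3 lines were −0.54 ± 0.14, −0.55 ± 0.17 and −0.56 ± 0.13 (SD, n = 3). CC9mus read 0.53, −0.43 and −0.63, a mean of −0.18 ± 0.62, and its distance from the others came from replicate 1, the flat array. The difference of 0.37 (−0.12 to 0.86) did not pass the test (limma adjusted p = 0.260). Its sign held in all 28 alternatives, with values from 0.02 to 0.85. It was 0.02 without CC9mus replicate 1, 0.60 without CC9mus replicate 3, 0.75 with scan period as a block on equal spread and 0.85 with equal spread, and limma called it in none of them. The mean over the 12 arrays stood at percentile 19.4 of all islands. This is a description only, since probes differ in how well they hybridise. The percentile was 50.5 for Dnmt1, 44.1 for Dnmt3a and 42.8 for Dnmt3l.

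The first Dnmt3b probe, chr2:153475348-153475393, had the lowest mean ratio and the smallest p among lines. It read −1.54, −1.01 and −1.26 in CC9pahari, below all other arrays (0.656% of probes), and −0.92 to −0.52 in the other divergent lines. CC9mus read 0.81, −0.79 and 0.02. CC9pahari was 1.28 below CC9mus (−2.11 to −0.45, limma adjusted p = 0.128). Its IP stood well above background on 2 of 3 arrays in each of these lines. The second probe, with the highest mean ratio, ranged from −0.67 to −0.18 in the divergent lines and from −0.25 to 0.42 in CC9mus. The IP signal of the third probe was not well above background on any CC9pahari array and was so on 4 arrays in all. Its ratio in CC9pahari therefore rests on signals near background.

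The Dnmt3l island, chr10:77506098-77506486, did not separate the lines. The means were −0.03 ± 0.43 (SD, n = 3) in CC9mus, −0.12 ± 0.25 in CC9spretus, −0.12 ± 0.29 in CC9pahari and −0.23 ± 0.27 in CC9dunni. The third array was the highest in every line, with 0.46 in CC9mus, 0.08 in CC9spretus, 0.07 in CC9dunni and 0.20 in CC9pahari, and the other 8 arrays lay between −0.46 and −0.06. CC9mus was 0.12 above the other lines (−0.35 to 0.59, limma adjusted p = 0.710). The sign held in 21 of 28 alternatives, with values from −0.29 to 0.40. It turned without CC9mus replicate 3 (−0.13), with normexp (−0.04), with probes of dim input or of dim IP left out (−0.03 each), with scan period as a block or the later period alone (−0.15 each) and with scan period as a block on equal spread (−0.29).

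In Dnmt3l the fourth probe, chr10:77506432-77506486, had the smallest p among lines and read −1.19, −1.08 and −0.45 in CC9dunni against −0.49 to 0.89 on the other arrays. CC9dunni was 1.12 below CC9mus (−1.96 to −0.27, limma adjusted p = 0.138). In CC9dunni its IP stood well above background on 1 of 3 arrays and its input also on 1 of 3, so the low ratio rests on dim spots. The second probe had the highest mean ratio and ranged from −0.36 to 0.49. The third had the lowest, and ranged from −1.43 to 0.67.

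**Figure D3:**
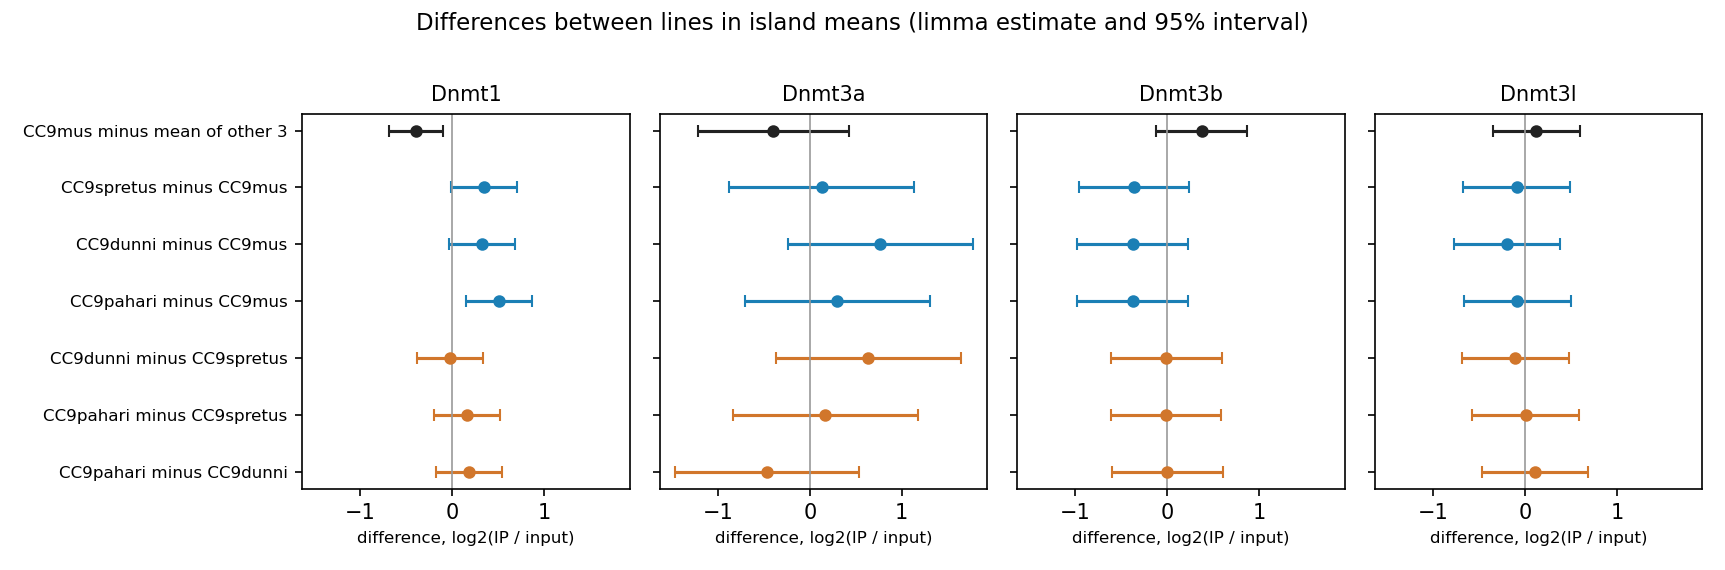
Differences in island log2(IP/input) between lines (horizontal axis, limma estimate with 95% interval) for each comparison (vertical axis). The intervals of Dnmt1 exclude 0 for CC9mus against the mean of the others (−0.69 to −0.10) and for CC9pahari against CC9mus (0.15 to 0.87), and all other intervals include 0.

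Counted over all members, no probe and no island passed an adjusted p under 0.05 in limma in any comparison. For CC9mus against the mean of the others, 0 of 17 probes were called, against 4.57% of all probes, and 7 of 17 had an unadjusted p under 0.05, against 28.9%. Of these 7 probes, 5 lay in Dnmt1, 1 in Dnmt3a and 1 in Dnmt3b. For each divergent line against CC9mus, limma called 0% of all probes. There, 0 of 17 members had an unadjusted p under 0.05 for CC9spretus (17.1% of all probes), 4 for CC9dunni (23.4%) and 5 for CC9pahari (20.7%). Of the 4 islands, 0 had an unadjusted p under 0.05 for CC9spretus (18.9% of all islands) and for CC9dunni (24%), and 1, Dnmt1, for CC9pahari (25.5%). These comparisons share the CC9mus arrays.

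The divergent lines were also compared with each other. In the test for any difference among CC9spretus, CC9dunni and CC9pahari, limma called 0 of 17 probes and 0 of 4 islands, 0% of the array, and 0 members had an unadjusted p under 0.05, against 1.5% of all probes and 0.892% of all islands. The largest of the 12 pairwise island differences was 0.64 at Dnmt3a, CC9dunni over CC9spretus, with an interval of −0.37 to 1.64. At Dnmt3b all 3 intervals of these differences lay between −0.62 and 0.60. The number of arrays limits the precision, with an SE of 0.46 for each such difference at Dnmt3a.

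A mean log2 ratio above 2 or below −2 over the 3 arrays of a line is called hypermethylated or hypomethylated here. The study's methods name the same fold, but between samples and together with a Z-score, so these counts do not follow its full rule. In each line 0 of 17 probes were hypermethylated and 0 hypomethylated. Over the whole array, the hypermethylated share was 9.39% in CC9mus, 5.16% in CC9spretus, 5.32% in CC9dunni and 4.71% in CC9pahari. The hypomethylated share was 3.25%, 1.08%, 0.586% and 0.124%. The threshold is fixed, while the SD of the log2 ratio was 1.85 and 2.01 on CC9mus replicates 2 and 3 and 1.09 to 1.38 on the divergent arrays. The part of this width in the larger CC9mus shares was not tested. The member probe means ranged from −1.27, the first Dnmt3b probe in CC9pahari, to 1.29, the second Dnmt3a probe in CC9dunni. On single arrays, 1 member value lay above 2 (the fourth Dnmt1 probe, 2.01, CC9mus replicate 3) and 1 below −2 (the fourth Dnmt3a probe, −2.16, CC9mus replicate 2).

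Member values were also compared between the scan periods, where the shares of members were near those of the array for probes. Over the divergent lines, the 6 earlier arrays lay wholly above the 3 later ones at 2 of 17 probes (6.97% of all probes) and wholly below at 2 (15.4%). The second Dnmt1 probe averaged 0.93 ± 0.23 (SD, n = 6) in the earlier and −0.20 ± 0.15 (n = 3) in the later period, and the second Dnmt3a probe 1.28 ± 0.44 and −0.15 ± 0.40. The third Dnmt3l probe and the second Dnmt3b probe were lower in the earlier period, by 0.88 and 0.33. Of the islands, Dnmt3b and Dnmt3l were lower in the earlier period with no overlap, as in 20.7% of all islands. At Dnmt1 the divergent arrays averaged 0.10 ± 0.08 in the earlier and 0.02 ± 0.15 in the later period. Within the later period CC9mus was 0.34 below the divergent lines at Dnmt1 (limma, unadjusted p = 0.199). This fit rests on 3 CC9mus arrays against 3 divergent ones, 1 of each line, and limma called 0 islands of the whole array in it, so it says nothing about stability. Scan period as a block gives the same difference by construction, since all CC9mus arrays are of the later period, and its unadjusted p was 0.0547 in limma.

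The ratio was next split into its channels, an analysis added after the values had been seen. The input signal of the Dnmt3a island was higher in CC9mus, with 1.88, 2.00 and 2.09 on the centred log2 scale, than on the other 9 arrays, which lay between 1.03 and 1.57. The difference was 0.70 (0.45 to 0.95, limma adjusted p = 0.00133). At Dnmt3l the input was also higher in CC9mus, with 0.37 to 0.53 against 0.10 to 0.34, by 0.24 (0.07 to 0.41, limma adjusted p = 0.0290). Thus 2 of 4 member islands were called in the input, against 43.8% of all islands, and the same 2 had all CC9mus arrays above the rest, against 20.4%. The difference at Dnmt3a was 0.50 with scan period as a block (limma adjusted p = 0.00238) and that at Dnmt3l was then 0.14 and not called (limma adjusted p = 0.142). Input signals at the Dnmt3b island were 0.27 lower in CC9mus (−0.50 to −0.05, limma adjusted p = 0.0519), so 3 of 4 islands had an unadjusted p under 0.05, against 53.1% of all islands.

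Over the 550 islands of chromosome 12, the median input difference between CC9mus and the others was 0.02, against 0.04 over all islands. The input difference of the Dnmt3a island stood at percentile 94.8 of all islands. Chromosome 10, with Dnmt3l, had a median of 0.07. The IP signal at Dnmt3a was 1.58, 0.51 and 2.55 in CC9mus and 0.75 to 1.56 elsewhere, so the wide range of the ratio there came with the IP channel. The mean IP at Dnmt3a was 0.33 higher in CC9mus (−0.40 to 1.05, limma adjusted p = 0.535). Since the ratio is the IP less the input, apart from the centring, the lower mean ratio over all CC9mus arrays at Dnmt3a came with the input. This split turned on single arrays. Without CC9mus replicate 2 the differences were 0.85 in the IP, 0.70 in the input and 0.19 in the ratio. Without CC9mus replicate 3 they were −0.17, 0.65 and −0.89. The lower ratio of CC9mus at Dnmt1 came with the IP, with −0.01, −0.15 and −0.19 against −0.01 to 0.38 on the other arrays, a difference of −0.34 (−0.65 to −0.03, limma adjusted p = 0.150). With scan period as a block this difference was −0.19 (limma, unadjusted p = 0.212). Its input differed by 0.03 (−0.12 to 0.18). In the IP channel 0 of 4 islands were called by limma, against 5.23% of all islands, and 1 of 4 had an unadjusted p under 0.05, against 27.3%.

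**Figure D4:**
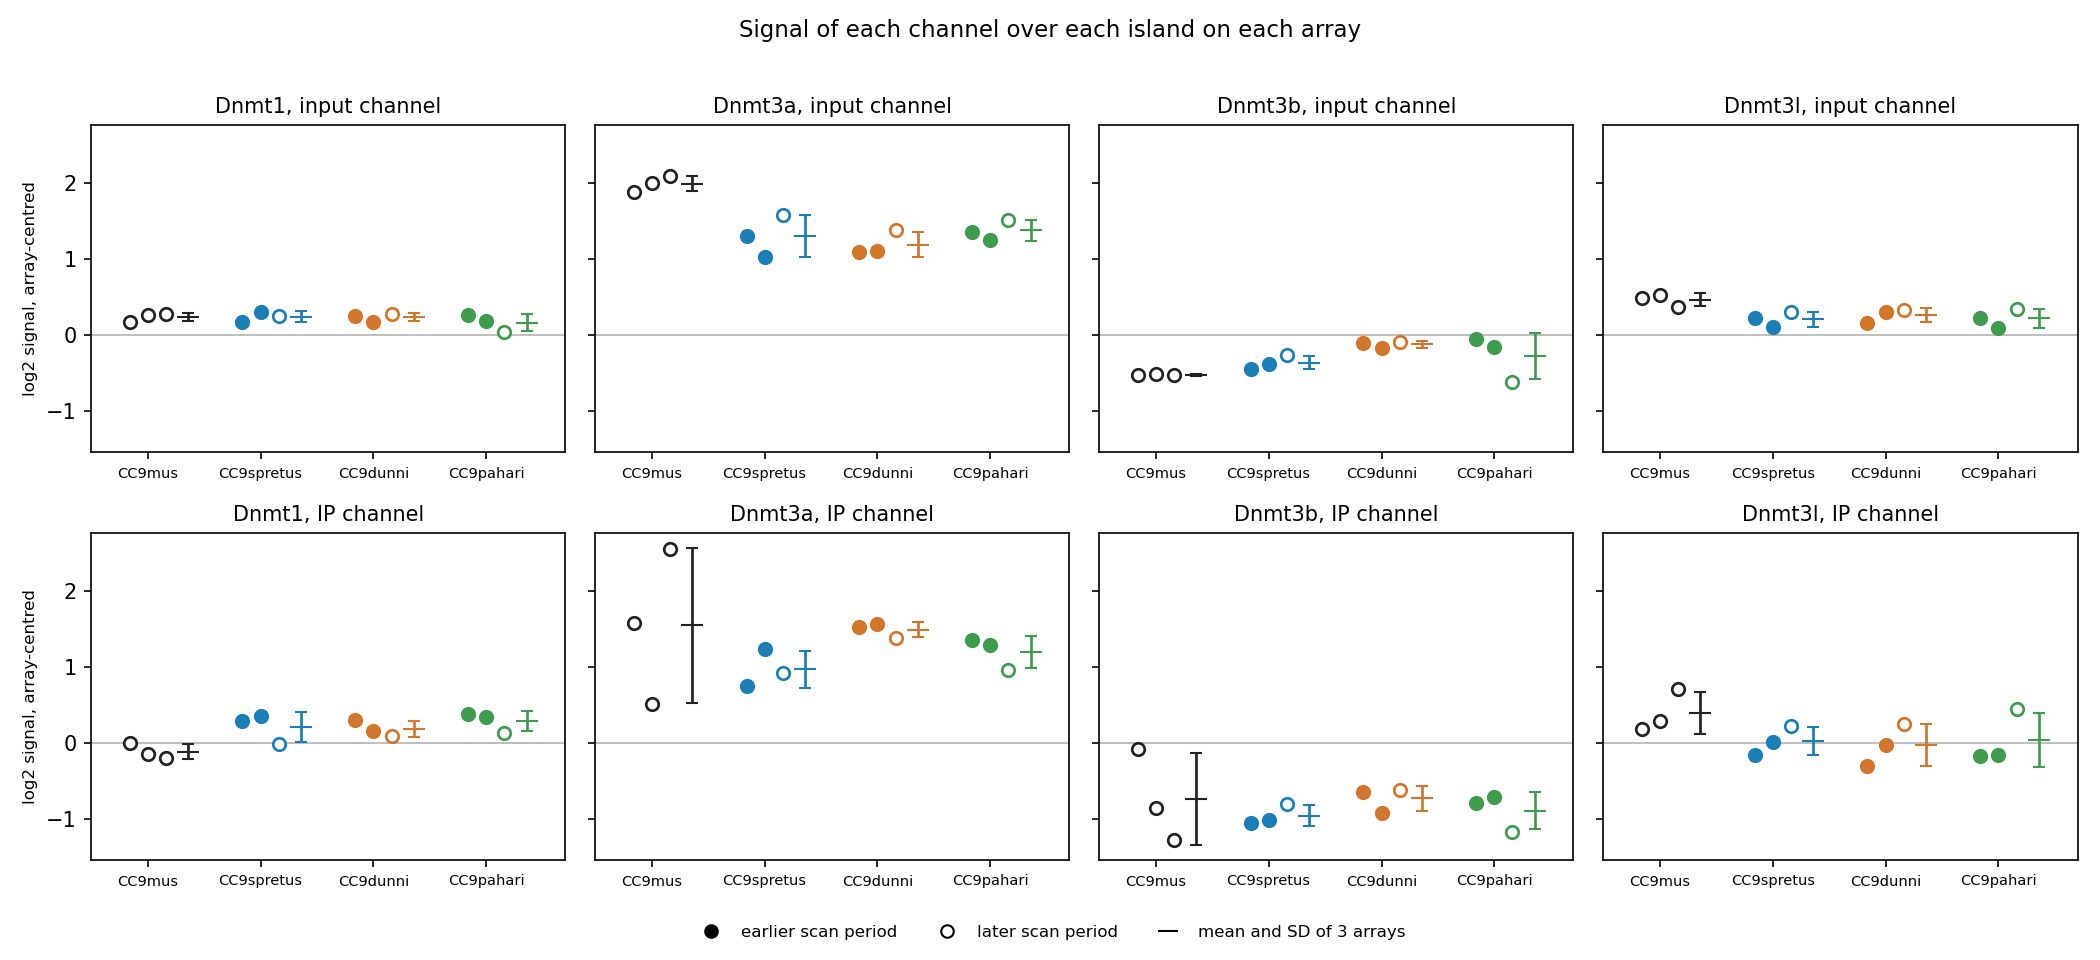
Array-centred log2 signal (vertical axis) of the input channel in the upper row and of the IP channel in the lower row for the 4 islands on each array by line (horizontal axis), with filled points for the earlier and open points for the later scan period and bars for the mean and SD of 3 arrays. The input of Dnmt3a is highest on the 3 CC9mus arrays, at 1.88 to 2.09, and the IP of Dnmt3a spans 0.51 to 2.55 in CC9mus.

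No probe lay in the Tet1 window, so the window gave no value for Tet1. The nearest islands stood on either side of it, 4797 bp before the window at chr10:62254274-62255203 and 4438 bp after it at chr10:62349438-62350078, with 7 probes each. Tet1 is on the minus strand, so the island after the window lies on the side of its start and the one before it on the side of its end. Whether either belongs to Tet1 was not determined, because the annotation is of another build. Both were looked at after the positions had been seen. The island before the window ranged from −0.39 to 0.05 over the 12 arrays. That after the window read 0.06, −0.92 and −1.19 in CC9mus and −0.49 to 0.06 elsewhere, a difference of −0.50 (−1.03 to 0.03, limma adjusted p = 0.171). Over the 9 divergent arrays both islands stayed between −0.49 and 0.06.

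Near the Dnmt3l window lay 2 islands with high ratios in at least 1 line. The island 7602 bp before the Dnmt3l window, of 2 probes, had means of 2.04 ± 1.37 (SD, n = 3) in CC9mus, 2.25 ± 0.18 in CC9spretus, 1.77 ± 0.42 in CC9dunni and 2.07 ± 0.27 in CC9pahari, and stood at percentile 93.2 of all islands. The island 1813 bp after that window, of 8 probes, read 0.13, 1.55 and 3.42 in CC9mus and −0.10 to 0.29 on the other 9 arrays. The difference there was 1.63 (0.55 to 2.71, limma adjusted p = 0.0665), and the flat array CC9mus replicate 1 lay within the range of the other lines. Beside Dnmt1, the island 15299 bp after the window was 0.79 lower in CC9mus (−1.43 to −0.14, limma adjusted p = 0.0998). The other 3 neighbouring islands differed between CC9mus and the other lines by 0.37 or less. One of them, 26187 bp after the Dnmt3a window, may belong to another start of Dnmt3a, which was not determined.

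**Figure D5:**
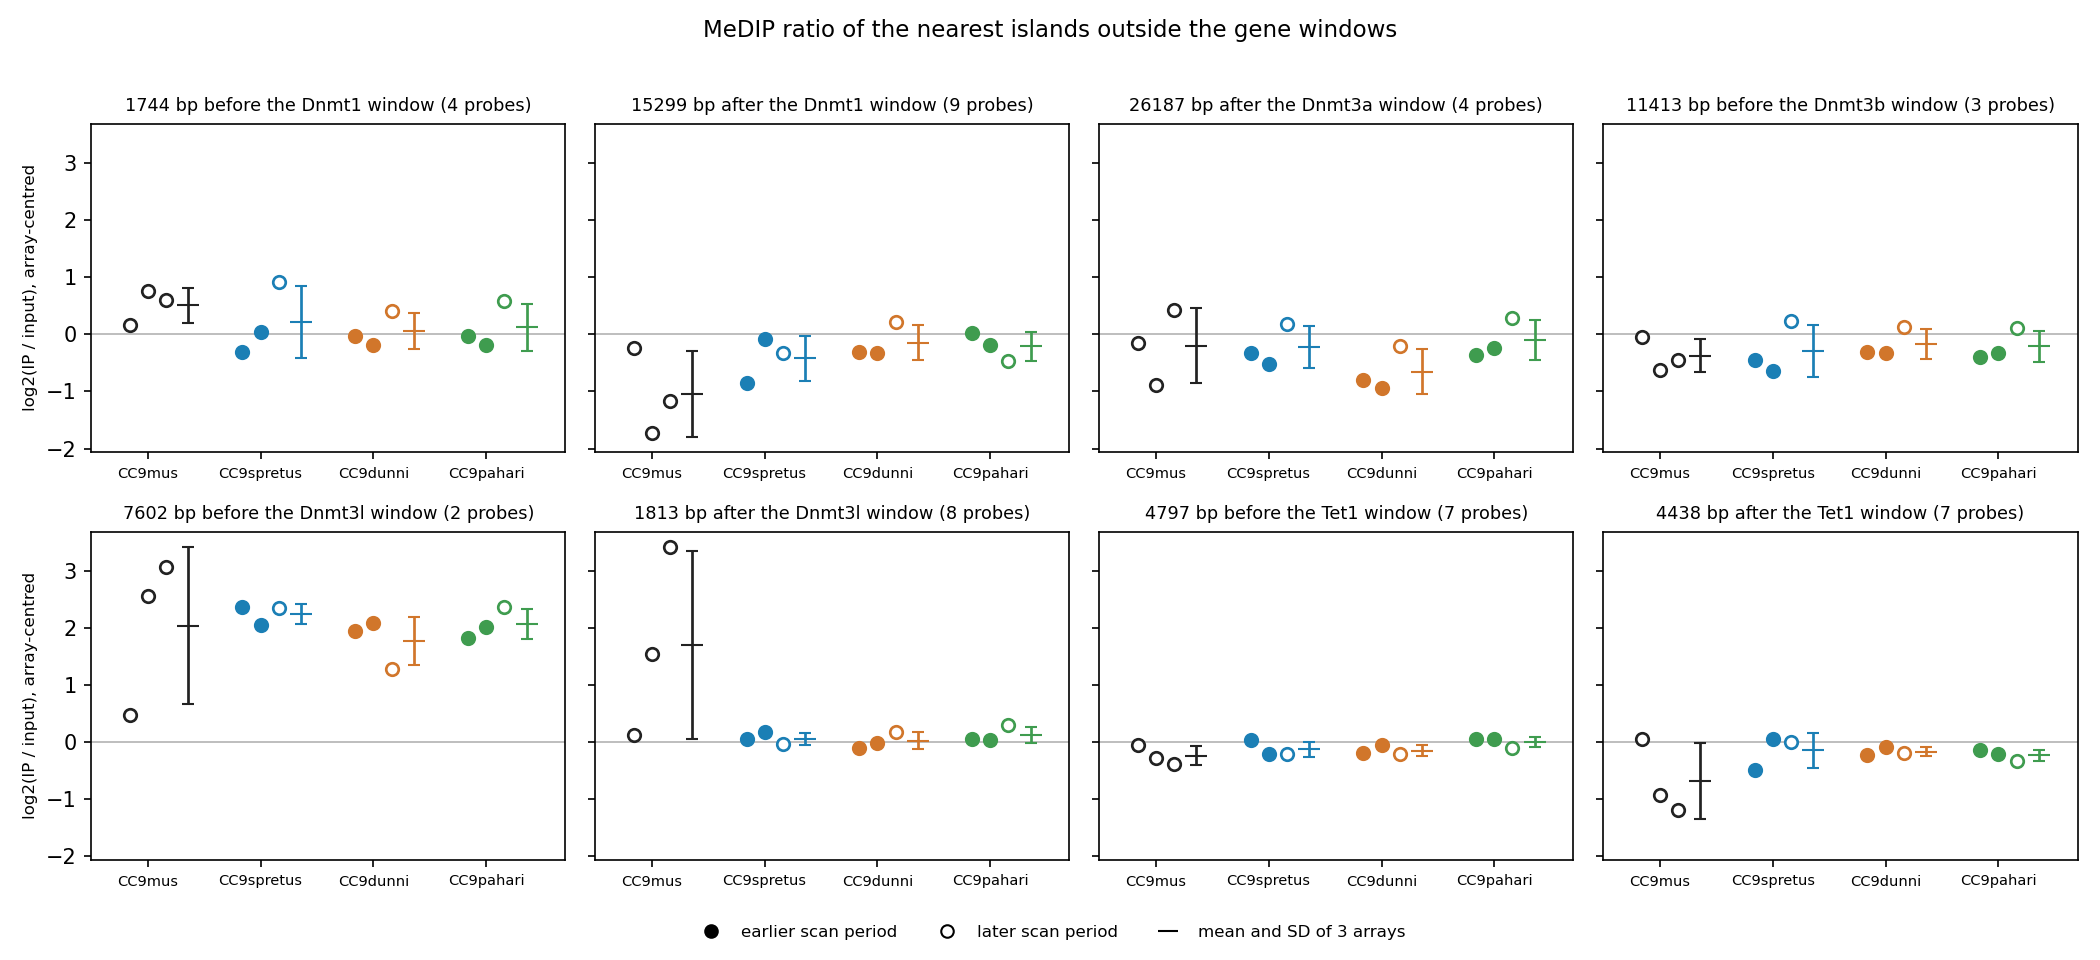
Array-centred log2(IP/input) (vertical axis) of the nearest islands within 30000 bp outside the 5 windows on each array by line (horizontal axis), with filled points for the earlier and open points for the later scan period and bars for the mean and SD of 3 arrays. The island 1813 bp after the Dnmt3l window is raised on CC9mus replicates 2 and 3, at 1.55 and 3.42, and near 0 elsewhere.

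The 4 islands did not vary together over the 12 arrays. Pearson's r between pairs of them ranged from −0.23, Dnmt3a with Dnmt3b, to 0.38, Dnmt1 with Dnmt3a, as a description over arrays that share their scaling. Among 13459 other islands of at least 3 probes, the one most like Dnmt1 over the 12 arrays was chr19:60965534-60966673 (r = 0.96), followed by chr2:181022187-181022920 and chr2:38142298-38143126. The closest to Dnmt3a was chr11:4645990-4646703 (r = 0.91), to Dnmt3b chr2:22750940-22751623 (r = 0.93) and to Dnmt3l chr11:69418599-69419438 (r = 0.97). The next 2 islands in each ranking had r from 0.87 to 0.96.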

How the data were processed

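DNA methylation was profiled by MeDIP in 12 samples, 3 per line, on 2-colour mouse CpG island arrays, with 120 to 250 ng of IP (Cy5) and 400 ng of input DNA (Cy3) labelled per array. The authors processed the scans in Agilent Feature Extraction, given as 11.0.1.1 in the file headers and as 11.0.1.0 in the submitters' processing notes. The deposited processed signals are intensities after background subtraction, spatial detrending and linear dye normalisation, and the deposited ratios are log10 values of IP over input. Signals not above their error were raised to a small positive value by the scanner software, which limits how low the ratio of a dim probe can be read.

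Ratios were formed as log2 of the IP over the input signal, without spots marked as outliers, and the median of each array was subtracted. An island was the mean of the probes whose neighbours lay within 1000 bp. All 12 arrays entered 1 model of 4 line means (limma 3.58.1 in R 4.3.3, lmFit, contrasts.fit and eBayes), with Benjamini-Hochberg adjustment over all 88737 probes or all 14580 islands and a threshold of 0.05. Single probes named were, in each island, those with the highest and the lowest mean and the smallest p of the F test among the 4 lines. The methods give no test between arrays. The genes, windows and lists were chosen with earlier results of these data known. The fits of the single channels and the description of islands outside the windows were added after the values had been seen. Alternatives covered centring, normexp (offset 50), the deposited ratios, equal spread of the arrays, outlier and dim spots, replicate, slide and scan period, array weights, gaps of 500 and 2000 bp, the median over probes, a Z-score beyond 5 and leaving out each array. The code was tested on simulated data. No file named the gene of a probe, so other genes of the pathway, such as Tet2, Tet3 and Uhrf1, were not analysed here. Promoters came from RefSeq (GRCm38.p6), in which all 5 genes were matched. Figures were drawn with matplotlib 3.10.9.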

Additional observations from a re-analysis of the deposited data

How the results depend on the processing

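With 3 arrays a line, of which CC9mus replicate 1 was flat and CC9mus replicates 2 and 3 were wide, the spread of CC9mus limits every comparison with it, and 3 of the 17 probes were dim in the IP on most arrays of at least 1 line. Counts of called members were 0 as reported, and they rose as follows, with the share called of all probes or islands of the array.

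For CC9mus against the mean of the others, limma called 3 of 17 member probes with equal spread (12.1%) and 3 with scan period as a block on equal spread (21.4%), 1 with array weights (13.3%), and 1 of 4 islands with dim IP left out (15.1%). For CC9dunni against CC9mus it called 2 probes with equal spread (9.16%), 3 with scan period as a block on equal spread (19.5%) and 4 with array weights (15%). For CC9pahari against CC9mus it called 1 (3.95%), 3 (14.6%) and 2 probes (17.1%) in the same settings, and 1 island, Dnmt1, with scan period as a block on equal spread (23.4%). Leaving out each array in turn gave 0 to 3 probes for CC9mus against the others, 0 to 2 for CC9spretus, 0 to 4 for CC9dunni and 0 to 4 for CC9pahari against CC9mus, and 0 to 1 islands in each of these 4 comparisons. Every count above 0 came from leaving out CC9mus replicate 1, and each island called was Dnmt1. Without that array limma called 40.4%, 27%, 34% and 31.7% of all probes in these comparisons and 50.3%, 36%, 42.2% and 46.3% of all islands. The F test among the divergent lines and the threshold of 2 on the log2 ratio gave 0 in every setting run, the earlier scan period alone, added after the data were seen, included. The cause of these changes was not tested.

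Same-numbered arrays of different lines shared deviations with r from −0.38 to 0.54 over 18 pairs, with 12 over 0.1, and 6 of 12 arrays correlated best with their own number, so the numbers were not taken to pair CC9mus with the other lines. Among the divergent lines all 9 pairs were over 0.1 (r from 0.12 to 0.54), and replicate 3 of each was of the later scan period. The replicate block left the test among these lines at 0 members. With the replicate block, limma called 1 member probe for CC9mus against the others, the second of Dnmt1, and 8.42% of all probes. At that probe the divergent arrays averaged 0.93 in the earlier and −0.20 in the later scan period, against −0.51 in CC9mus.

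In the input channel, where 2 islands were called, scan period as a block left 1, Dnmt3a (36% of all islands), and leaving out each array gave 1 to 3 (29.3% to 54.3%). In the IP channel no member island was called with scan period or replicate as a block or with any array left out. The share called of all islands there ran from 0%, as without CC9spretus replicate 2, to 38.7% without CC9mus replicate 1.

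Some island means moved by more than the SD of their line. Without centring, Dnmt1 was −0.12 in CC9dunni and 0.021 in CC9pahari, and Dnmt3b −0.72 in CC9pahari. With normexp, Dnmt1 was −0.11 in CC9spretus, −0.17 in CC9dunni and −0.11 in CC9pahari, Dnmt3b −0.17, −0.28 and −0.22 in these lines, and Dnmt3a −0.30 in CC9dunni and −0.48 in CC9pahari. Equal spread gave 0.21 for Dnmt1 in CC9pahari. With dim IP left out, Dnmt1 was −0.54 in CC9mus, 0.12 in CC9dunni and 0.27 in CC9pahari, and Dnmt3b −0.36 in CC9pahari. The median over probes gave Dnmt1 −0.081 in CC9spretus, −0.062 in CC9dunni and 0.010 in CC9pahari, Dnmt3a 0.087 in CC9dunni and Dnmt3b −0.36 in CC9pahari. Of 352 island means computed under alternatives, 331 moved by less than this SD.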
